A study of Homo sapiens with 6 samples.

Results

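The genes described here are 10 targets, carriers and reductases of doxorubicin, out of 58884 genes listed for each library. They were chosen by name and role, with earlier results of these data known, so the choice was not blind to the values. TOP1 and TOP2B were listed as targets, ABCB1 and ABCC1 as carriers, and CBR1, CBR3, AKR1A1 and AKR1C3 as carbonyl reductases. POR and XDH were listed as reductases that pass single electrons to the drug. RNA-seq was performed on cells that the paper describes as immortalized human cardiomyocytes of ventricular origin (6 libraries). The labels name the cells T0519 and the paper's account of the sequencing names AC16, which are separate lines, so the sources conflict over which line was sequenced. Of these, 3 libraries came from cells transfected with negative control siRNA (NC) and 3 from cells transfected with siRNA against CIRBP (SiCIRBP), the cold-inducible RNA-binding protein. All cells were grown in the same serum-containing medium, and none of the 6 libraries received doxorubicin, so the values are levels before any drug. The paper left out NC_1 and SiCIRBP_2 because they stood apart from the libraries of their groups. The 4 libraries it kept (NC_2, NC_3, SiCIRBP_1 and SiCIRBP_3) gave the values reported first, and all 6 are given beside them. The paper chose them by correlation and principal component analysis of these same data, which can narrow the spread within groups. The p-values over 4 libraries can therefore be too small. Nothing in the labels says that the libraries of a group came from separate cultures, so p-values measure only the spread between these libraries, which may be technical.

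Doxorubicin is an anthracycline that traps type II topoisomerases on cut DNA, and TOP2B is the form that non-dividing heart muscle cells keep. Carbonyl reductases turn its side-chain ketone into an alcohol, doxorubicinol, which is held to be a cardiotoxic metabolite. Flavoenzymes such as POR and XDH can give an electron to its quinone ring, and the resulting semiquinone passes the electron to oxygen to form superoxide, whereas ABCB1 and ABCC1 pump the drug out of the cell.

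The libraries held between 25726259 and 29919566 estimated counts. The siRNA target CIRBP was at 133.0 to 149.0 TPM in NC libraries, where TPM is a transcript level scaled by transcript length and by library total. It was at 62.14, 22.5 and 57.75 TPM in SiCIRBP_1, SiCIRBP_2 and SiCIRBP_3, so the library that the paper left out was the lowest. In normalized counts (CPM, counts scaled by library size) CIRBP was at 85.78 to 90.95 in NC. The SiCIRBP libraries, in the same order, were at 54.75, 24.31 and 46.28 CPM. Of 15 cardiomyocyte markers, 11 were under 1 TPM in every library. The sarcomere and calcium genes MYH6, MYL2, TTN, RYR2 and PLN were listed at 0 TPM throughout, whereas the cardiac transcription factors GATA4 and NKX2-5 and the structural gene ACTN2 exceeded 1 TPM in every library. The summed level of the 15 markers was 72.8 to 89.9 TPM in NC and 41.2 to 61.2 TPM in SiCIRBP. GATA4 was the largest part of this sum, at 52.4 to 63.0 TPM in NC and 22.6 to 45.2 TPM in SiCIRBP. At low levels, TNNI3 and NPPA were higher in every SiCIRBP library than in any NC library, so the sum does not stand for each marker. All 8 fibroblast markers exceeded 1 TPM in every library, with sums of 3875 to 4142 TPM in NC and 3758 to 5328 TPM in SiCIRBP. VIM was the largest part of these sums, at 2723.68 to 3663.25 TPM over all libraries. Most cardiomyocyte markers thus lay under 1 TPM, so the name of the cells rests on the paper and not on these values. The summed level of 10 interferon-induced genes was 379.0 to 413.5 TPM in NC, 229.5 TPM in SiCIRBP_1, 730.4 TPM in SiCIRBP_3 and 4590 TPM in SiCIRBP_2. The part of these lists in the results below was not tested.

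The levels of the 10 genes spanned from abundant to undetected. By mean TPM over the 6 libraries, CBR1 came first at 162.8 ± 32.7 (SD, n = 6), above 93.9% of the genes tested. AKR1A1 followed at 75.1 ± 9.49 TPM (SD, n = 6), and no library of AKR1A1 reached the lowest CBR1 value. TOP1 at 48.2 ± 8.46 TPM and POR at 47.0 ± 4.36 TPM (SD, n = 6) could not be ranked, since TOP1 was the higher in 3 of 6 libraries. AKR1C3 was at 32.5 ± 3.09 TPM (SD, n = 6), below POR in every library. ABCC1 at 27.5 ± 7.80 TPM and TOP2B at 26.5 ± 3.76 TPM (SD, n = 6) again exchanged places, with ABCC1 the higher in 3 of 6 libraries. CBR3 was at 17.5 ± 2.95 TPM (SD, n = 6), below TOP2B within each of the 6 libraries although the ranges over libraries overlapped. XDH and ABCB1 were at or next to 0. The cells therefore held transcripts of both genes listed here as targets, of 1 of the 2 carriers, of all 4 carbonyl reductases and of 1 of the 2 single-electron reductases. TOP2A, the paralog of TOP2B, is not among the 10 genes and is described below.

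Between SiCIRBP and NC, CBR1 and TOP1 rose in the 4 libraries, and the other 6 genes tested did not pass. Tests were run with edgeR's quasi-likelihood test on rounded estimated counts over 15421 genes, and a gene passed at a Benjamini-Hochberg adjusted p under 0.05. Of the 8 members with enough counts to be tested, 2 passed, both higher and none by 2-fold or more, while 19.4% of all genes tested passed in either direction, 9.62% were higher and 3.62% passed with at least 2-fold. A count of 2 of 8 is near that background and is no result about the 10 genes as a group. The median log2 fold change of the 8 members was 0.14, against 0.00 over all genes. Over all 6 libraries no member passed, nor did any of the 15217 genes tested by edgeR (0.0% called), although 3 members and 3603 genes had an unadjusted p under 0.05. DESeq2 on the same 6 libraries called 1 member, CBR1, and 1522 genes. NC_1, which the 4 libraries leave out, was the highest NC library for both CBR1 and TOP1, at 76.6 and 133.3 CPM. As these are bulk libraries, fewer cells of a kind and less RNA per cell cannot be told apart.

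**Figure D1:**
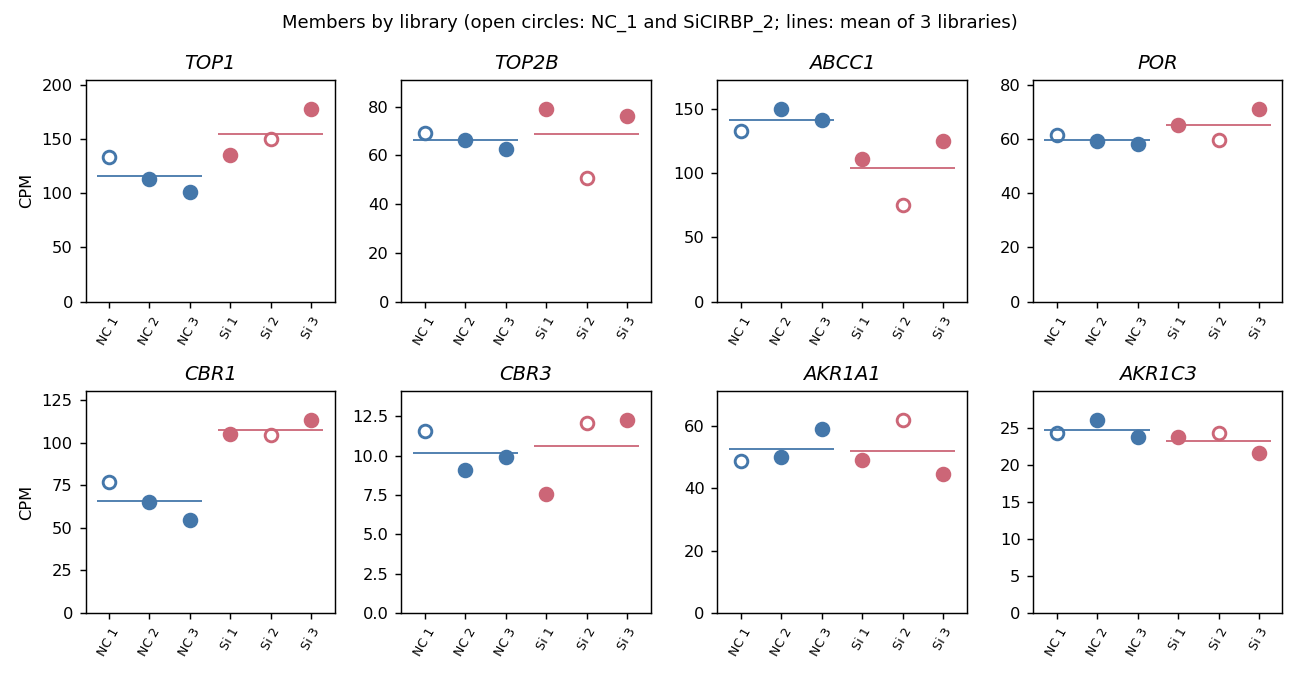
Normalized counts (CPM, counts scaled by library size, vertical axis from 0) of the 8 detected members in each of the 3 NC and 3 SiCIRBP (Si) libraries, with a line at the mean of each group. Open circles are NC_1 and SiCIRBP_2, and CBR1 and TOP1 lie higher, and ABCC1 lower, in all 3 SiCIRBP libraries than in any NC library.

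**Figure D2:**
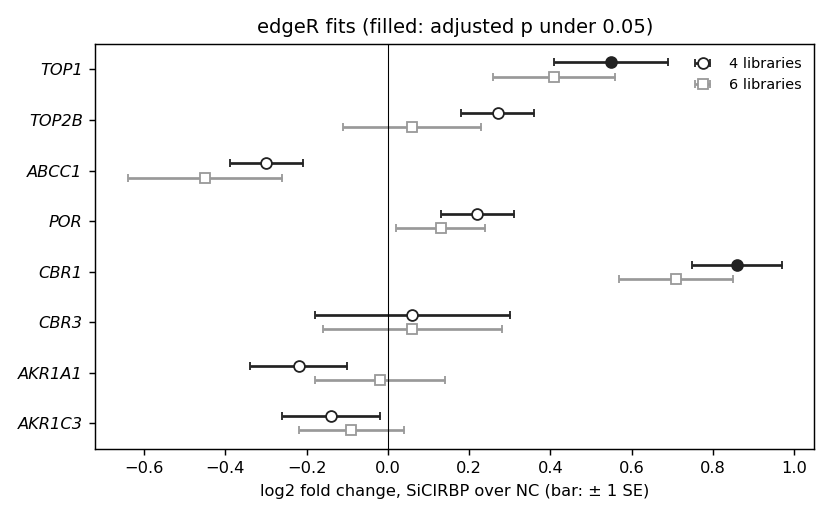
Log2 fold change of SiCIRBP over NC for the 8 tested members (horizontal axis, bars ± 1 SE derived from edgeR's F statistic). Circles are for the 4 libraries and squares for all 6. Filled symbols have an adjusted p under 0.05, which held for CBR1 at 0.86 and TOP1 at 0.55 over the 4 libraries and for none over 6.

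TOP1 and CBR1, the members that passed, are shown first by the sequence before their start. The windows were read from RefSeq promoters (GRCh38.p14), which matched 7 of the 10 genes, and end where the first annotated transcript of the gene begins. Capitals mark the antioxidant response element core (TGACNNNGC on either strand, 13.3% of 35116 promoters of 300 bases), the GC box (GGGCGG, 45.0%) and the CCAAT box (CCAAT, 34.6%), and no marked motif overlaps another. The CBR1 window, chr21:36069774-36069940 on the plus strand, holds the antioxidant core on its minus strand, and lies inside the span of SETD4, which runs the other way. Further on, within the annotated transcripts and not printed, the 300-base CBR1 promoter also holds 2 GC boxes and 2 xenobiotic response element cores (GCGTG, 36.5% of promoters). The shares refer to 300 bases, while 167 are printed for CBR1 and 246 for TOP1. The TOP1 window, chr20:41028572-41028817 on the plus strand, holds a GC box and an antioxidant core.
CBR1: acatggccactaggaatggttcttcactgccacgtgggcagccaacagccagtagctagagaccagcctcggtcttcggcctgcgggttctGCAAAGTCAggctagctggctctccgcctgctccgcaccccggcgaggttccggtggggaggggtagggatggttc
TOP1: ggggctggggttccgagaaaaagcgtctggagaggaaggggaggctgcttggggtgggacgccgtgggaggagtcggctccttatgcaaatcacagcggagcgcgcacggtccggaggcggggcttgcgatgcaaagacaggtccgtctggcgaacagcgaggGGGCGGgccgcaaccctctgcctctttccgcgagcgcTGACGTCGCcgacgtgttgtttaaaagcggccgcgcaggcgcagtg
The antioxidant core also stands in the promoter of XDH, which was not expressed above the limit of detection, and a match is a description of letters only. Over the full 300 bases, GC content was 69.3% for CBR1 and 64.7% for TOP1, against a median of 58.7% over all promoters.

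Of the genes listed as targets, TOP1 relaxes DNA by nicking a single strand. It is the target of the camptothecins and not one of the type II enzymes that doxorubicin traps. The gene (ENSG00000198900) lies on chr20:41028818-41124487 of GRCh38, on the plus strand, with 1 annotated transcript. Normalized counts of TOP1 were 133.3, 113.1 and 101.4 CPM in NC_1, NC_2 and NC_3, and 135.2, 149.7 and 177.7 CPM in SiCIRBP_1, SiCIRBP_2 and SiCIRBP_3. Every SiCIRBP library was above every NC library, but NC_1 and SiCIRBP_1 were nearly level. Over the 4 libraries TOP1 was 1.46-fold higher, a log2 fold change of 0.55 with an SE of 0.14 (edgeR, adjusted p = 0.0392). Over 6 libraries the log2 fold change was 0.41 with an SE of 0.15 (edgeR, adjusted p = 0.166), and an exact two-sided permutation test on log2(CPM + 1) gave p = 0.1, the smallest that 3 against 3 libraries can give. The call over 4 libraries was lost without NC_2 (edgeR, log2 fold change 0.62, adjusted p = 0.145) and without NC_3 (0.46, adjusted p = 0.283). It was also lost on the TPM scale (limma on log2(TPM + 1), 0.44, adjusted p = 0.112), where the difference relative to the median of all genes was 0.54. Over all 6 libraries the groups overlapped in TPM, since NC_1 at 49.4 TPM lay above SiCIRBP_1 at 48.1 TPM and SiCIRBP_2 at 47.4 TPM.

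TOP2B, the topoisomerase II of resting cells, lies on chr3:25597905-25664907 on the minus strand (ENSG00000077097). Normalized counts of TOP2B were 69.4, 66.4 and 62.8 CPM in NC_1 to NC_3, and 79.1, 50.9 and 76.3 CPM in SiCIRBP_1 to SiCIRBP_3. SiCIRBP_1 and SiCIRBP_3 were above all NC libraries and SiCIRBP_2 was below all of them, so the groups overlapped. The log2 fold change was 0.27 with an SE of 0.09 over 4 libraries (edgeR, adjusted p = 0.0721) and 0.06 with an SE of 0.17 over 6 (adjusted p = 0.863). Within libraries, the ratio of TOP1 to TOP2B in TPM was 1.75, 1.67 and 1.54 in NC and 1.55, 2.33 and 2.18 in SiCIRBP. TOP1 was thus the more abundant transcript of the pair in all 6 libraries, and the ratios of the groups overlapped through SiCIRBP_1. TOP2A, the form of dividing cells and the paralog of TOP2B, was at 216.4, 209.5 and 195.2 CPM in NC and 212.1, 125.7 and 196.0 CPM in SiCIRBP. It did not pass (edgeR over 4 libraries, 0.01, adjusted p = 0.928), and SiCIRBP_2 was again the lowest library. In TPM, TOP2A exceeded TOP2B in every library, with ratios of 2.04, 2.29 and 2.26 in NC and of 2.01, 1.74 and 1.95 in SiCIRBP.

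Of the carriers, ABCB1 (P-glycoprotein, chr7:87503633-87713323, minus strand) had 0 counts in all 6 libraries. A count of 0 allows up to 3 counts, which is 0.0984 to 0.117 CPM per library and covers counting error only. ABCB4, its paralog, also had 0 counts throughout. ABCC1 (MRP1, which exports the drug together with glutathione) was the carrier present, and lies on chr16:15949577-16143074 on the plus strand (ENSG00000103222). Normalized counts of ABCC1 were 133.0, 150.1 and 141.7 CPM in NC_1 to NC_3, and 110.9, 75.5 and 125.4 CPM in SiCIRBP_1 to SiCIRBP_3. All 3 SiCIRBP libraries were below all NC libraries, with SiCIRBP_2 far under the others. The log2 fold change was -0.30 with an SE of 0.09 over 4 libraries (edgeR, adjusted p = 0.0631) and -0.45 with an SE of 0.19 over 6 (adjusted p = 0.198), and neither passed. The exact two-sided permutation p was 0.1 for a difference of -0.47 in mean log2(CPM + 1). In all, 3 of the 8 members had groups that did not overlap in CPM (TOP1 and CBR1 higher, ABCC1 lower), a share near the 32.8% of 15217 genes for which this held, 16.2% higher and 16.6% lower.

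The carbonyl reductases are led by CBR1, a short-chain reductase that forms doxorubicinol in the cytosol. CBR1 (ENSG00000159228) spans chr21:36069941-36073166 (plus strand), with 5 transcripts in the annotation, the principal one of 1293 bases and 3 exons. Normalized counts of CBR1 were 76.6, 65.1 and 54.8 CPM in NC_1, NC_2 and NC_3, and 104.9, 104.5 and 113.2 CPM in SiCIRBP_1, SiCIRBP_2 and SiCIRBP_3. The highest NC library remained well below the lowest SiCIRBP library, and the 3 SiCIRBP libraries were closer to each other than the 3 NC libraries. The means were 65.5 ± 10.9 CPM in NC (SD, n = 3) and 107.5 ± 4.94 CPM in SiCIRBP (SD, n = 3). Over the 4 libraries CBR1 was 1.82-fold higher, a log2 fold change of 0.86 with an SE of 0.11 (edgeR, adjusted p = 0.00726), the largest change among the 8 members tested. Over 6 libraries it was 0.71 with an SE of 0.14 (edgeR, adjusted p = 0.0885; DESeq2, adjusted p = 0.00119), and without SiCIRBP_2, the library high in interferon-induced genes, it was 0.74 (edgeR, adjusted p = 0.0303). The exact two-sided permutation p was 0.1, for a difference of 0.72 in mean log2(CPM + 1). Of the 4 libraries, the call was lost without NC_3 (edgeR, 0.74, adjusted p = 0.0994).

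On the TPM scale CBR1 measured 154.6, 139.1 and 118.9 TPM in NC and 193.4, 165.1 and 205.8 TPM in SiCIRBP, again without overlap, which held in that direction for 8.61% of genes on this scale. The median of all genes lay at -0.09 on this scale over 4 libraries and at -0.13 over 6. Against that median the CBR1 difference was 0.72 over 4 libraries and 0.58 over 6, while the unadjusted difference was 0.63 (limma, adjusted p = 0.034) and 0.45 (adjusted p = 0.142).

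CBR3, the close paralog of CBR1 that lies 61.7 kb further along chromosome 21 (chr21:36134912-36146566, plus strand), was less abundant. Its normalized counts were 11.5, 9.09 and 9.91 CPM in NC and 7.57, 12.1 and 12.3 CPM in SiCIRBP. The SiCIRBP libraries held both the lowest value and the highest values, and the groups overlapped. The log2 fold change was 0.06 with an SE of 0.24 over 4 libraries (edgeR, adjusted p = 0.876), and on the TPM scale it was -0.06, or 0.03 relative to the median of all genes. In every library CBR1 was the more abundant of the pair, with TPM ratios of 7.66, 8.71 and 6.66 in NC and of 15.3, 9.19 and 9.97 in SiCIRBP. Few 31-base words were common to the transcripts of the pair, 1.2% of those of CBR1 and 2.63% of those of CBR3. CBR3 shares 493 exonic bases with CBR3-AS1 on the opposite strand, which had 8 to 37 counts, and the strand setting of the counting was not stated.

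AKR1A1 (aldehyde reductase, chr1:45550543-45570049, plus strand) was the second by level of the 4 carbonyl reductases among the 10 genes. AKR1B1 and DCXR, outside the 10, were above AKR1A1 in TPM in every library. Normalized counts of AKR1A1 were 48.8, 50.1 and 59.0 CPM in NC and 49.2, 61.9 and 44.5 CPM in SiCIRBP. The groups overlapped fully, and the log2 fold change was -0.22 with an SE of 0.12 over 4 libraries (edgeR, adjusted p = 0.221) and -0.02 with an SE of 0.16 over 6 (adjusted p = 0.945).

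AKR1C3 (an aldo-keto reductase that also acts on steroids and prostaglandins, chr10:5035354-5107686, plus strand) was at 24.4, 26.1 and 23.8 CPM in NC and at 23.8, 24.3 and 21.6 CPM in SiCIRBP. These groups overlapped, and the log2 fold change was -0.14 with an SE of 0.12 over 4 libraries (edgeR, adjusted p = 0.442). In TPM, AKR1C3 was 34.1 to 36.6 in NC and 28.9 to 31.8 in SiCIRBP, without overlap, but 22.6% of genes were lower without overlap on that scale. Relative to the median of all genes the TPM difference was -0.12 over 4 libraries. The paralogs AKR1C1 and AKR1C2 share 4.91% and 5.04% of the 31-base words of AKR1C3, so a part of their reads may be split among them. Neither paralog passed: AKR1C1 had a log2 fold change of 0.06 (edgeR, adjusted p = 0.797) and AKR1C2 of 0.85 (adjusted p = 0.32), the latter at no more than 134 counts in a library.

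The 4 carbonyl reductases among the members were taken as a pool of transcripts per length. CBR1 made up 54.5%, 52.6% and 45.3% of this pool in NC_1, NC_2 and NC_3. In SiCIRBP_1, SiCIRBP_2 and SiCIRBP_3 it made up 62.9%, 56.7% and 64.6%. The mean share was 50.8% ± 4.84 in NC (SD, n = 3) and 61.4% ± 4.13 in SiCIRBP (SD, n = 3), with no overlap. The pool itself was 270.2 ± 11.9 TPM in NC and 305.7 ± 13.9 TPM in SiCIRBP (SD, n = 3 each). The lowest SiCIRBP pool, at 291.0 TPM, was above the highest NC pool, at 283.9 TPM. These shares rest on the same CBR1 counts as above and are no separate evidence. The pool leaves out other carbonyl reductases, among them AKR1B1 at 85.99 to 157.5 TPM and DCXR at 89.03 to 127.39 TPM. The shares are therefore not those of all carbonyl reductase transcripts in the cells.

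**Figure D3:**
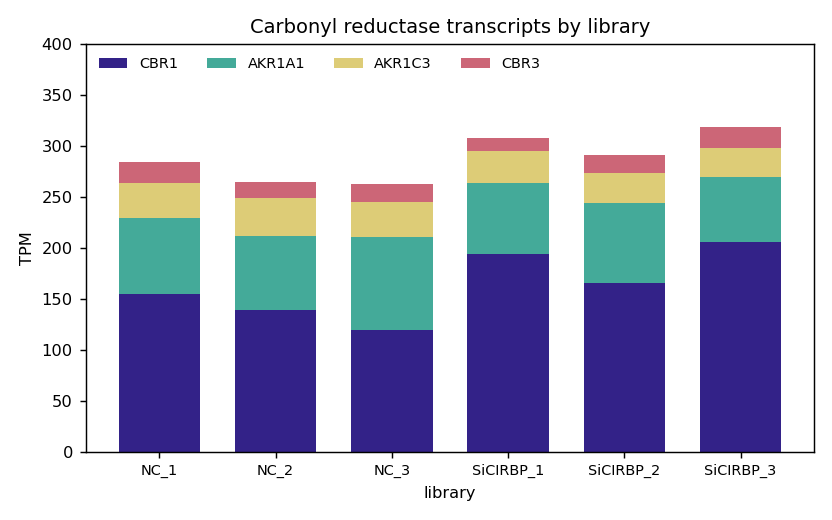
TPM of CBR1, AKR1A1, AKR1C3 and CBR3 stacked for each of the 6 libraries (vertical axis from 0). The CBR1 segment reaches 165.1 to 205.8 TPM in the 3 SiCIRBP libraries and 118.9 to 154.6 TPM in the 3 NC libraries, whereas the other segments change less between the groups.

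The tables carry a second readout, the transcript length that links a count to its TPM value. This implied length, in bases, was obtained for each library by calibration on 678 to 726 genes with a single annotated transcript, of which 73.3% to 74.0% came within 5% of the annotated length. For TOP1 it was 3740 to 3743 bases in all libraries, against 3738 bases for its only transcript in GENCODE 29. For CBR1 it was 902, 869 and 873 bases in NC and 927, 956 and 944 bases in SiCIRBP. Every SiCIRBP library was longer than every NC library, by a ratio of 1.07 between the means. The coding transcripts of CBR1 in GENCODE 29 have 838, 1024, 1293 and 1924 bases. Such an increase without overlap was found for 10.5% of 11523 genes. For ABCC1 the implied length was 5702 to 5939 bases in NC and 5837 to 6196 in SiCIRBP, and for TOP2B it was 3433 to 3668 and 3014 to 3522, both with overlap. CBR3 gave 998 to 999 bases against 1169 for its only GENCODE 29 transcript. The annotation behind the deposited values is not given in the sources used here, so the annotated lengths stand beside the implied ones for reference, and differences are read between libraries only.

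Of the single-electron reductases, POR (cytochrome P450 reductase, chr7:75899200-75986855, plus strand) was at 61.4, 59.3 and 58.1 CPM in NC and 65.2, 59.5 and 71.1 CPM in SiCIRBP. SiCIRBP_1 and SiCIRBP_3 were above all NC libraries and SiCIRBP_2 fell among them. The log2 fold change of 0.22 with an SE of 0.09 over 4 libraries (edgeR, adjusted p = 0.137) and of 0.13 with an SE of 0.11 over 6 (adjusted p = 0.494) did not pass. XDH (xanthine dehydrogenase, chr2:31334321-31414715, minus strand) had 0 counts in 5 libraries and 1 count in SiCIRBP_2, below the limit of 0.117 CPM in that library, so no fold change is given.

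The other genes of the doxorubicin pathway were 64 genes in 65 rows, of which 52 could be tested over the 4 libraries. Of these 52 rows, 5 were higher and 2 were lower, against 9.62% higher and 9.76% lower over all genes. Of the genes that remove oxidants, 10 rows were tested, 4 rose, none fell, and the median log2 fold change was 0.45, against 0.00 over all genes. The list was chosen with earlier results of these data known, so its shared direction is no independent evidence. HMOX1, which degrades heme, was at 124.0, 135.7 and 125.1 CPM in NC and 213.5, 195.3 and 272.7 CPM in SiCIRBP (edgeR, 0.90, SE 0.13, adjusted p = 0.00929). The peroxide-reducing PRDX1 was at 375.7 to 519.9 CPM in NC and 573.4 to 682.0 CPM in SiCIRBP (edgeR, 0.57, adjusted p = 0.0154). The superoxide dismutases SOD1 (edgeR, 0.44, adjusted p = 0.0147) and SOD2 (0.48, adjusted p = 0.0232, for the row ENSG00000112096) also rose. These 4 genes did not overlap between the 3 NC and the 3 SiCIRBP libraries, as held in that direction for 16.2% of all genes, but they were picked by a test on 4 of the same libraries. A second row named SOD2 (ENSG00000285441) did not pass (edgeR, 0.57, adjusted p = 0.0959), and reads may be split between both rows.

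Among 13 other quinone and single-electron reductases tested, NQO1, which reduces quinones by a pair of electrons, was the gene that passed, at 64.8 to 66.9 CPM in NC and 82.9 to 90.9 CPM in SiCIRBP (edgeR, 0.39, adjusted p = 0.0279). Topoisomerases and the repair of trapped topoisomerase gave 2 lower genes of 13 tested. PRKDC, the kinase of DNA end joining, was at -0.34 (edgeR, adjusted p = 0.0293). ZNF451, a SUMO ligase that acts on trapped topoisomerase, was at -0.44 (edgeR, adjusted p = 0.0466). Over all genes 9.62% were higher and 9.76% lower, so 1 or 2 genes of 13 are near the background and no result about either list. The mitochondrial topoisomerase TOP1MT had a log2 fold change of -0.05 (edgeR, adjusted p = 0.862). None of 7 other carriers and none of 9 other carbonyl reductases passed, CBR4 included (edgeR, 0.38, adjusted p = 0.391). Over 6 libraries none of the 52 passed in edgeR, where 10 had an unadjusted p under 0.05 and DESeq2 called 4 (HMOX1, NQO1, PRDX1 and SOD1), beside 10.0% of all genes. With 1 of the 4 libraries left out, the calls moved with those of the whole table. They were 29 of 53 without SiCIRBP_1, where 44.3% of all genes passed, and 0 without NC_2 or NC_3, where 1.04% and 0.403% passed.

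**Figure D4:**
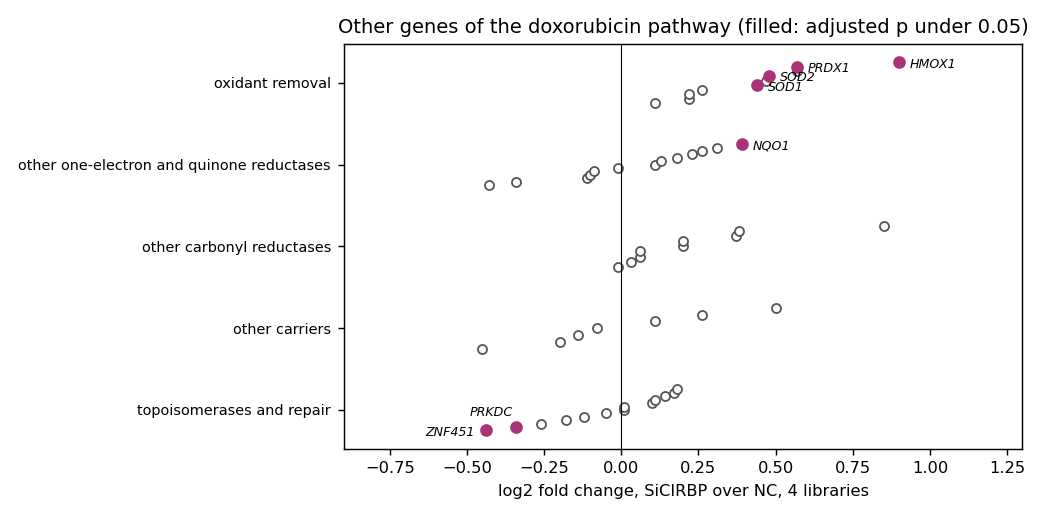
Log2 fold change over the 4 libraries (horizontal axis, SiCIRBP over NC) of the 52 other pathway rows tested, by list on the vertical axis, with filled points for an adjusted p under 0.05 in edgeR. All 10 oxidant removal rows, among them 2 rows of SOD2, lie above 0, as do 7685 of the 15421 genes tested. HMOX1 is the farthest at 0.90, and the list was chosen with earlier results of these data known.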

How the data were processed

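RNA-seq libraries were taken from the labels as NC 1 to 3 and SiCIRBP 1 to 3. The authors deposited an estimated count and a TPM value for each of 58884 genes per library, and the submitters' processing notes name fastp, HISAT, RSEM and hg38 without versions. The annotation release and strand setting are not given in the sources used here. The deposited tables also hold the authors' own fold changes and p-values, which were not used.

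Estimated counts were rounded and fitted over all genes with edgeR 4.0.16 in R 4.3.3 (TMM, filterByExpr, quasi-likelihood test, Benjamini-Hochberg adjustment). CPM values use TMM library sizes. TPM was tested with limma 3.58.1 on log2(TPM + 1) for genes of at least 1 TPM on average, and single members by exact permutation in scipy 1.17.1. DESeq2 1.42.0, RLE size factors, other filters, a pseudocount of 0.1, each library left out and the replicate number as a block were alternatives. Gene locations came from GENCODE 29, and promoters from RefSeq. Totals of 25726259 to 29919566 counts leave counting error small for the 8 detected members. The procedures were tested on simulated data.

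The 10 members and the pathway lists were chosen with earlier results of these data known. All members are named, and of the lists the genes that passed over 4 libraries and close paralogs of members. AKR1B1 and DCXR are named for their level.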

Additional observations from a re-analysis of the deposited data

How the results depend on the processing

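Over the 4 libraries, DESeq2, RLE size factors and a minimum of 10 counts in every library left CBR1 and TOP1 as the members that passed, and no filter on low counts added ABCC1. The count of 2 members fell to 1 with limma on log2(TPM + 1), to 1 with log2(TPM + 0.1) and to 0 without a filter on TPM, where no gene passed, and leaving out 1 library gave 0 to 7. It was 0 without NC_3, 1 without NC_2, 4 without SiCIRBP_3 and 7 without SiCIRBP_1, while genes passing overall moved from 64 without NC_3 to 7048 without SiCIRBP_1. Those fits leave a group with a single library, which is assumed to vary like the others. The 7 pathway rows became 12 with no filter, 4 and 4 on the 2 TPM scales, 0 on unfiltered TPM, and 0 to 29 with 1 library left out. Over 6 libraries, edgeR's 0 members became 1 with DESeq2, 1 with no filter and 0 to 1 with 1 library left out, each time CBR1, and its 0 pathway rows became 4, 1 and 0 to 2. Over all genes, 0 calls became 1522 with DESeq2, 881 with no filter, 18 without NC_1 and 1118 without SiCIRBP_2, and the 2989 calls of the 4 libraries became 4615 with no filter, 1283 and 1402 on the 2 TPM scales, and 168 without NC_2 or 6418 without SiCIRBP_3. The cause of these changes was not tested. Signs turned for members that did not pass. CBR3 over 4 libraries went to -0.06, -0.07 and -0.06 on TPM (leave-one-out range -0.33 to 0.36), and over 6 to -0.09, -0.10 and -0.09 (range -0.05 to 0.26), but TPM moves the median of all genes by -0.09 and -0.13, and relative to it CBR3 was at 0.03 in both fits with log2(TPM + 1). With 1 of 6 libraries left out, TOP2B ranged from -0.05 to 0.23 and AKR1A1 from -0.17 to 0.09. CBR1 kept its direction in every alternative run, from 0.63 to 0.99 over 4 libraries and 0.45 to 0.84 over 6, and TOP1 from 0.33 to 0.72 and 0.28 to 0.52. The replicate numbers showed no pairing of the libraries. Correlations of same-numbered deviations were -0.118, 0.00607 and -0.0264, and those of differently numbered ones ran from -0.0903 to 0.143. With 3 libraries in each group, these values cannot show a weak pairing. In a fit over 6 libraries that took the replicate number as a block, 0 members and 0 pathway rows passed, CBR1 was at 0.73 (edgeR, adjusted p = 0.147) and 1 gene was called. Depth did not limit the 8 detected members, but ABCB1 and XDH could not be compared at a limit of 0.0984 to 0.117 CPM.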

Other observations

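The neighbourhood of CBR1 on chromosome 21 was examined after the values had been seen. Within 500 kb, 11 genes were tested over the 4 libraries, of which 1 was higher, CBR1 itself, and 1 was lower, MORC3 at 247.0 kb (edgeR, log2 fold change -0.54, adjusted p = 0.0204). Over all genes 9.62% were higher and 9.76% lower, so these counts are near the background. SETD4, whose span contains CBR1 on the opposite strand without shared exonic bases, was at -0.47 (edgeR, adjusted p = 0.081), and RUNX1, 65.3 kb away, at -0.05 (adjusted p = 0.71). CBR3-AS1 was at -1.11 (edgeR, adjusted p = 0.124) with at most 37 counts in a library. The promoter window of AKR1C3, which did not pass, holds none of the antioxidant cores, nor do those of TOP2B, ABCB1 and AKR1A1.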
